A study of Oryza sativa with 4 samples.

Results

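Genes for the synthesis and loosening of the cell wall were followed in rice leaves given nitrate or water, in light-grown and in etiolated seedlings. A probe was a member if its array description contained one of 13 wall terms, such as expansin, xyloglucan, cellulose synthase, pectin, polygalacturonase, extensin or xylanase, and did not contain the word kinase. This gave 190 of the 21495 probes on the array. They fell into 9 families, with 34 expansins, 31 xyloglucan enzymes, 22 cellulose synthases and related synthases, 9 endoglucanases, 20 polygalacturonases, 29 other pectin enzymes, 2 arabinogalactan proteins, 4 probes named for xylanase (3 endoxylanases and 1 inhibitor) and 39 structural wall proteins. The xyloglucan enzymes include 3 probes for inhibitors. The descriptions name the nearest known sequence, often of another plant. The 190 members carry 110 different descriptions, 43 members are described as rice, and 118 members share 1 of 38 descriptions with another probe, so a shared name does not mean a shared gene.

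The plant cell wall is a network of cellulose fibres tied together by xyloglucan, or in grasses largely by xylans, and embedded in pectin and structural proteins. Cellulose synthases spin the fibres at the plasma membrane, while expansins and xyloglucan endotransglycosylases let the network slip so that a cell under turgor can grow. Pectin methylesterases and polygalacturonases change the stiffness and the breakdown of pectin. Seedlings kept in darkness elongate rapidly and do not green, a state called etiolation.

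All samples were leaves of indica rice, var. Panvel, from seedlings 8 to 10 days old raised at 25 °C on distilled water without nutrients. Light-grown seedlings had a day of 12 h, and etiolated seedlings were kept in total darkness. Leaves received 120 mM nitrate or water for 2 h per the labels, on leaves that had been cut off and floated on the solution per the study's methods, which state a different duration and growth temperature. Each of 4 two-colour arrays carried nitrate-treated and water-treated RNA of 1 condition, made from 2 biological replicates of each condition with the dyes flipped between them. The labels do not say which channel holds nitrate. The second channel was read as nitrate on every array, so all directions of the nitrate response rest on that reading, which was not independent of the study's own fold changes. Read this way, of the 6 probes for nitrate and nitrite reductases 4 were called higher with nitrate in light and 3 in dark, and none was called lower. Those described as barley nitrate reductase had log2 ratios of 6.44 and 6.32 and of 3.12 and 3.17 in light, and of 3.29 and 3.72 and of 0.88 and 0.80 in dark. A rice nitrite reductase probe gave 5.07 and 5.08 in light and 4.05 and 3.05 in dark, and was called in both. A Brassica nitrate reductase probe (-0.43) and another rice nitrite reductase probe (-0.22) were slightly negative in light and not called. Of the members, 110 were well above background in all 8 channels and 39 in none, taking a probe as above background where at least 1 of its 2 spots was. Over the 190 members, the log2 ratios of the 2 light arrays correlated at 0.510 and those of the 2 dark arrays at 0.394, given as a description. As the RNA came from whole leaves, a change in the number of cells of a type and a change of RNA per cell cannot be told apart.

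In light, nitrate moved a few expansins strongly in both directions, together with a xyloglucan fucosyltransferase and xylan and pectin enzymes. The alpha-expansin Os-EXP3 was down-regulated on both of its probes, whereas the beta-expansin EXPB11 and the alpha-expansin OsEXP5 were up-regulated. Of the 190 members, 15 were called, which is 7.89%, against 3.74% of all probes. Of these, 10 were higher and 5 lower with nitrate, beside 2.28% and 1.46% of all probes. A probe was called where its mean log2 ratio was at least 1 in size and limma's unadjusted p was at most 0.05. After Benjamini-Hochberg adjustment over all probes 0 members remained, against 67 of all probes (0.312%), and 40 members had an unadjusted p under 0.05 at any fold, or 21.1% beside 16.1% of all probes. The median log2 ratio was 0.03 over the members and -0.01 over all probes. With normexp background correction 2 members were called, EXPB11 and OsEXP5, or 1.05% of the members against 1.26% of all probes.

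**Figure D1:**
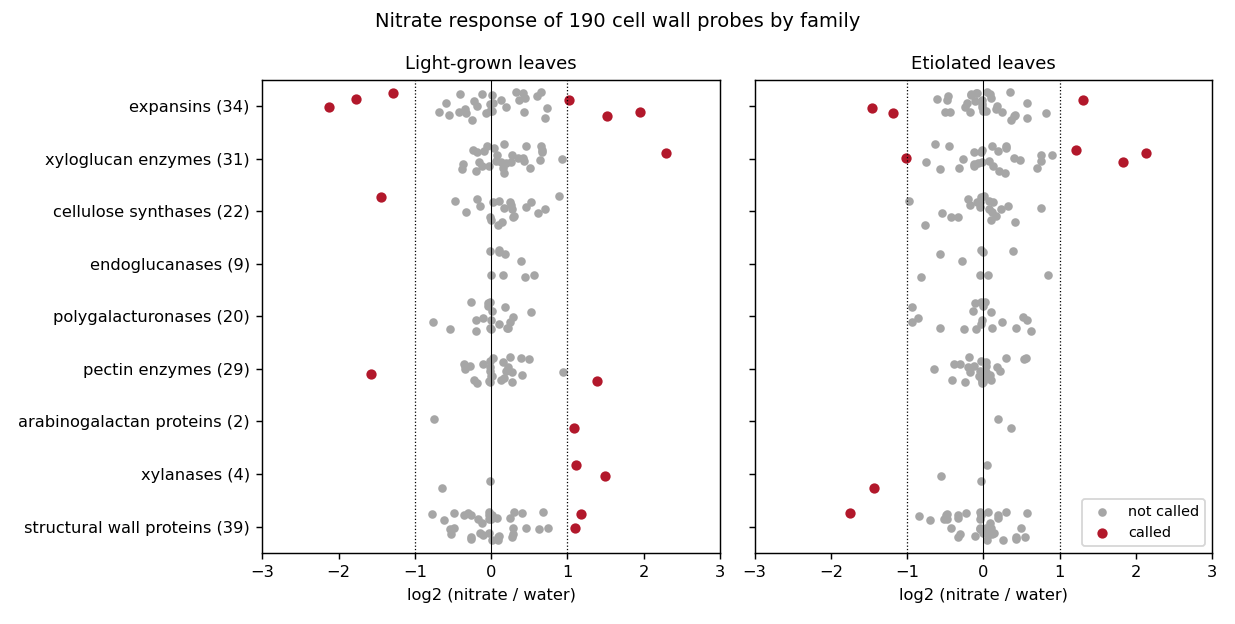
Each point is 1 of 190 probes, placed by its mean log2 ratio of nitrate over water (horizontal axis) in its family (vertical axis, number of probes in brackets), for light-grown (left) and etiolated leaves (right), 2 arrays each. Red points are called, dotted lines mark a log2 ratio of 1 in either direction, and the vertical position within a family is random. Expansins hold 6 of the 15 called probes in light, and xyloglucan enzymes 4 of the 9 called in dark.

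Expansins loosen the wall without cutting its polymers, and in light they held 6 of the called members, 3 higher and 3 lower. The Os-EXP3 probe A_71_P100666 gave log2 ratios of -2.44 and -1.80 on the light arrays, a mean of -2.12 ± 0.20 (SE, n = 2) or 4.35-fold lower (limma, adjusted p = 0.0626). With nitrate it was well above background on 1 of the 2 light arrays. The second Os-EXP3 probe, A_71_P114714, gave -2.22 and -1.33. With nitrate it did not reach well above background on any light array, so its change was at least 3.42-fold (adjusted p = 0.0948). With normexp background correction the values were -0.69 and -0.49, and neither probe was called. In dark, where all channels of both probes were measured, the first gave -0.26 and -0.23 and the second -0.60 and -0.63, and neither was called.

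EXPB11 (A_71_P106285) went the opposite way, with 1.68 and 2.23 on the light arrays and a mean of 1.96 ± 0.20 (SE, n = 2), 3.89-fold higher (adjusted p = 0.0687). Beta-expansins are the expansin group that is most expanded in grasses. OsEXP5 (A_71_P106348) gave 1.44 and 1.59 in light, a mean of 1.52 ± 0.16 (SE, n = 2) with an adjusted p of 0.0724. The remaining called expansins were dim. A probe of EXPB4, at -1.29, and a beta-expansin probe described by the Arabidopsis locus At4g28250, at 1.03, were not well above background in any channel, and no fold is given for them. The light call of the At4g28250 probe (A_71_P112673) was lost under 6 of 12 alternatives, among them leaving out light replicate 2 (0.63) and the replicate block, which adds the replicate number to the fit (0.99). Its dark call was lost under 4 of 12, among them leaving out dark replicate 1 (0.98). The EXPB4 call was lost without light replicate 2 (-0.88). No other expansin probe was called in light, and the median of the 34 was 0.00 with 17 above and 17 below zero.

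Among the xyloglucan enzymes, 1 probe was called in light. It was A_71_P110908, described as the pea xyloglucan fucosyltransferase, an enzyme that adds the terminal fucose to xyloglucan side chains. It gave 2.65 and 1.93 in light and 2.18 and 2.08 in dark, so that all 4 arrays lay far above zero and the conditions overlapped. In light its water channel was not well above background, which makes the change at least 4.89-fold (adjusted p = 0.0626). In dark the mean was 2.13 ± 0.22 (SE, n = 2), 4.38-fold higher (adjusted p = 0.0754). It was the only member measured above background that was called in both conditions, since the other, the At4g28250 probe, was above background nowhere. None of the 17 xyloglucan endotransglycosylase probes was called in light or in dark.

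Xylans are cut by endoxylanases, and 2 of the 3 probes described as papaya endoxylanase were called in light. A_71_P115250 gave 1.69 and 1.29, a mean of 1.49 ± 0.30 (SE, n = 2) with an adjusted p of 0.137, and A_71_P109911 gave 1.32 and 0.90, a mean of 1.11. Pectin methylesterases remove methyl groups from pectin. The probe A_71_P103344, described by the Arabidopsis locus At5g19730, gave 1.41 and 1.36 in light and a mean of 1.38 ± 0.14 (SE, n = 2), 2.61-fold higher (adjusted p = 0.0688). The calls of both endoxylanase probes were lost without light replicate 1, where their log2 ratios were 1.29 and 0.90.

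The remaining calls in light were spread over families. FLA6 (A_71_P106528), a fasciclin-like arabinogalactan protein of the cell surface, gave 1.11 and 1.07, and its call was lost with the replicate block (0.93). The structural proteins held 2 higher probes, OsPRP1 (A_71_P123704) at 0.76 and 1.59, and the maize proline-rich protein (A_71_P109557) at 1.14 and 1.06. The OsPRP1 probe was above background only with nitrate, so that its change was at least 2.26-fold, and the maize probe was above background in no light channel. Lower values were found for the poplar cellulose synthase-like protein CSLD4 (A_71_P117252), at -1.05 and -1.84, and for the willow pectin methylesterase SgPME1 (A_71_P121914), at -0.63 and -2.51. The arrays of SgPME1 lay far apart, and its call was lost without light replicate 2, at a log2 ratio of -0.63, without either dark array and with the replicate block (-0.93). The call of OsPRP1 was lost without light replicate 2, at 0.76. Neither endoglucanases nor polygalacturonases had a called probe. With dim probes left out, 6 members were called in light, all 6 of them higher with nitrate, a count given without a share of all probes. Among the 13 probes named as plain cellulose synthases of the CesA type, a subset picked after the values were seen, none was called in light, 12 had a positive log2 ratio and the median was 0.29.

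**Figure D2:**
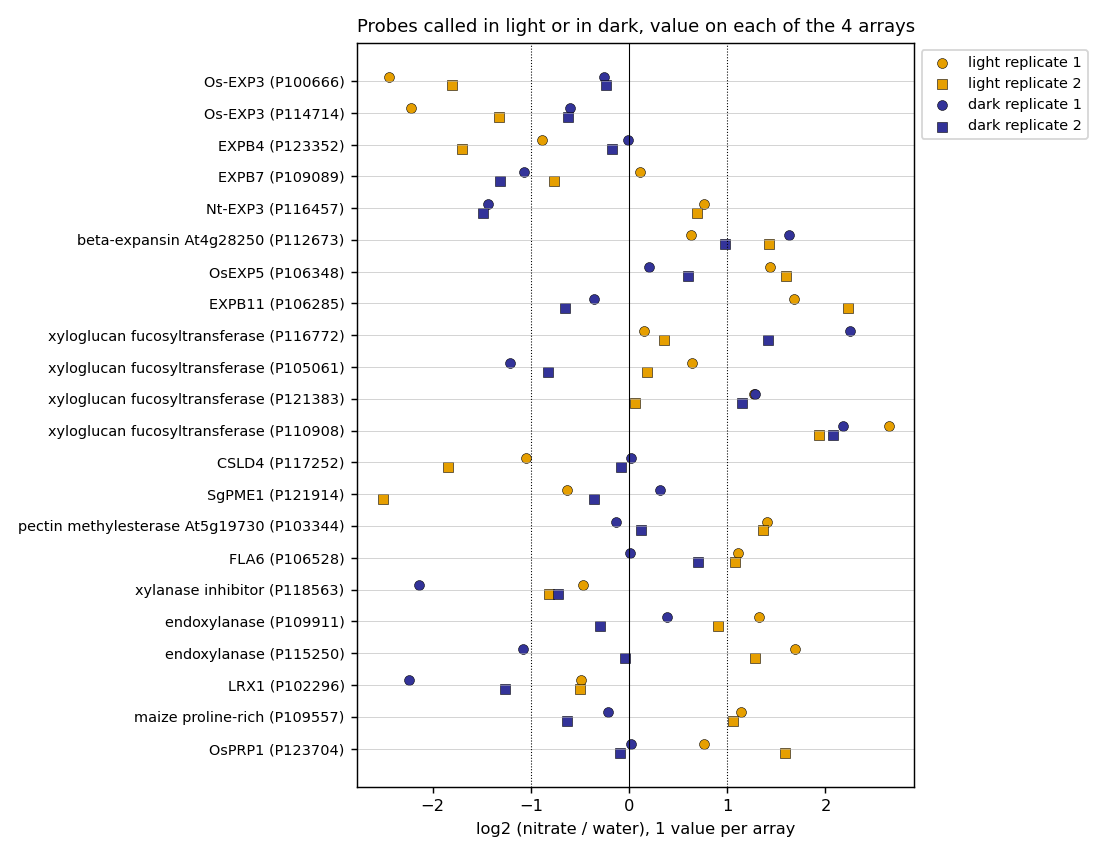
The log2 ratio of nitrate over water (horizontal axis) of the 22 probes called in light or in dark (vertical axis) on each array, with light replicates in orange and dark replicates in blue, circles for replicate 1 and squares for replicate 2. The 2 Os-EXP3 probes lie below -1 on both light arrays, and the fucosyltransferase P110908 lies between 1.93 and 2.65 on all 4 arrays.

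In dark, 9 members were called, 4 higher and 5 lower, and xyloglucan fucosyltransferases were the most frequent among them. The tobacco alpha-expansin Nt-EXP3 and the rice beta-expansin EXPB7 were down-regulated. The 9 are 4.74% of the members, against 3.53% of all probes, with 1.81% of all probes higher and 1.72% lower. After adjustment 0 members remained, against 48 of all probes (0.223%), and 33 members had an unadjusted p under 0.05 at any fold, or 17.4% beside 15.9% of all probes. The median log2 ratio was -0.02 over the members. With normexp background correction 2 members were called, EXPB7 and the leucine-rich repeat extensin LRX1, and without dark replicate 2 the count was 14. These counts are given without a share of all probes and show no excess among the members.

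The 11 probes named pea xyloglucan fucosyltransferase did not move as 1 group in dark. In that condition 3 were called higher and 1 lower. Besides A_71_P110908, the probe A_71_P116772 gave 2.25 and 1.42 in dark, at least 3.56-fold (adjusted p = 0.0964), and A_71_P121383 gave 1.29 and 1.15, at least 2.32-fold, as neither was above background with water. The call of A_71_P121383 was lost without either dark array. A_71_P105061 was bright in every channel and gave -1.21 and -0.83, a mean of -1.02 ± 0.19 (SE, n = 2) with an adjusted p of 0.147, and its call was lost without dark replicate 1, at -0.83. The 11 probes had a median of 0.75 in dark and 0.26 in light, and 4 of them were well above background in no channel. With median centring the lower call of A_71_P105061 was lost, and with normexp none of the 11 was called.

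Nt-EXP3 (A_71_P116457) gave -1.44 and -1.49 in dark, a mean of -1.46 ± 0.13 (SE, n = 2), 2.76-fold lower (limma, adjusted p = 0.0654), which was the smallest adjusted p of any member in dark. Its light arrays gave 0.77 and 0.69. EXPB7 (A_71_P109089) gave -1.07 and -1.31 in dark and 0.11 and -0.76 in light, and its call was lost without dark replicate 2 and, at -0.91, with the replicate block. An LRX1 probe (A_71_P102296), one of 9 named after this Arabidopsis extensin of root hair walls, gave -2.24 and -1.26 in dark. The probe for a wheat xylanase inhibitor protein (A_71_P118563), a defence protein that blocks microbial xylanases, gave -2.14 and -0.72, but none of its channels was well above background in dark, and its call was lost without dark replicate 1 (-0.72). Cellulose synthases, endoglucanases, polygalacturonases, pectin enzymes and arabinogalactan proteins had no called probe in dark.

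The nitrate response of 23 members differed between the conditions, that is 12.1% of the members against 6.51% of all probes. In 17 of these members the ratio was higher in light, and in 6 it was higher in dark, beside 3.54% and 2.98% of all probes in these directions. Expansins gave the largest differences both ways. In 14 of the 23 the mean was positive in light and negative in dark, and 8 of the 23 were called in neither condition by itself. After adjustment 0 differences remained among the members and 0 among all probes, the smallest adjusted p of a member was 0.0992, and 37 members had an unadjusted p under 0.05 at any fold, or 19.5% beside 15.7% of all probes. With normexp background correction 8 members were called, all of them higher in light. No share of all probes is given beside these 8, the 14 or those called in neither condition. These counts therefore show no excess among the members.

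**Figure D3:**
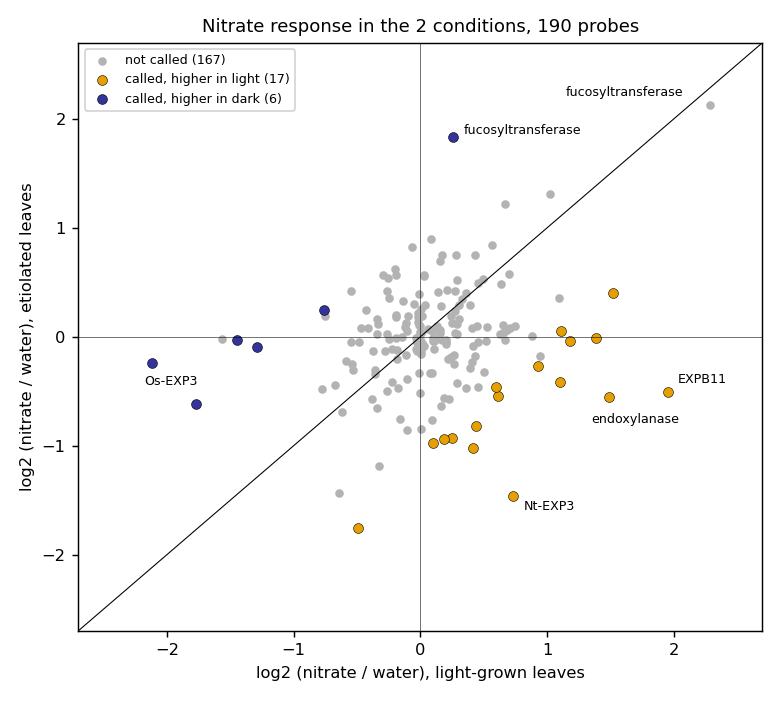
Mean log2 ratio of nitrate over water in light-grown leaves (horizontal axis) against etiolated leaves (vertical axis) for 190 probes, 2 arrays per condition, with the line of equal response. Orange points are the 17 probes called for a higher ratio in light and blue points the 6 called for a higher ratio in dark. EXPB11, Nt-EXP3 and an endoxylanase lie farthest below the line.

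EXPB11 differed most, with 1.68 and 2.23 in light against -0.36 and -0.65 in dark, a log2 difference of -2.46 ± 0.28 (SE, dark minus light, adjusted p = 0.143). Nt-EXP3 followed, at 0.77 and 0.69 against -1.44 and -1.49, a difference of -2.19 ± 0.18 (adjusted p = 0.0992). The replicates of Nt-EXP3 differed by much less than the conditions did. The endoxylanase probe A_71_P115250 fell from 1.69 and 1.29 in light to -1.08 and -0.04 in dark, a difference of -2.05 ± 0.42. The reverse was seen for Os-EXP3, with differences of 1.88 ± 0.28 and 1.16 ± 0.36 on its probes (adjusted p = 0.184 and 0.268). The smaller one was no longer called without dark replicate 1 (1.15), dark replicate 2 (1.17) or light replicate 1 (0.71).

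The maize proline-rich protein had a higher ratio in light (difference -1.52), but it was above background in no light channel. With normexp its difference was -0.29 and not called. Further members with a higher ratio in light were the fucosyltransferase probe A_71_P105061 (-1.43) and the At5g19730 pectin methylesterase probe (-1.39). The last gave -0.13 and 0.12 in dark, where it was bright, so nitrate raised it in light alone by this threshold, and the conditions differed by 1.39. Those with a higher ratio in dark were the fucosyltransferase probe A_71_P116772 (1.58), CSLD4 (1.41), which was not above background in any dark channel, EXPB4, also dim, and the beta subunit of tomato polygalacturonase isoenzyme 1 (A_71_P120568, 1.01). This subunit binds the pectin-cutting enzyme within the wall of tomato fruit, and its probe gave -0.89 and -0.64 in light against 0.19 and 0.30 in dark. Its call was lost without dark replicate 2 (0.95) or light replicate 1 (0.88), and that of CSLD4 without dark replicate 1 (1.36).

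Several of these differences came from moderate shifts that neither condition alone carried past the threshold. Of 3 probes named after the tomato polygalacturonase XOPG1, A_71_P113641 gave 0.32 and 0.18 in light and -0.83 and -1.04 in dark. A_71_P113846 gave almost the same values, 0.26 and 0.11 against -0.88 and -0.99, while A_71_P113644 went the other way, with means of -0.20 and 0.62. CesA-8 (A_71_P118115), a cellulose synthase named after maize, gave 1.09 and 0.14 in light against -0.82 and -0.26 in dark, a difference of -1.16 ± 0.41. Its call was lost without light replicate 1 (-0.68), dark replicate 1 (-0.88) or dark replicate 2 (-1.44) and with the replicate block (-1.16). Of the 13 probes of the CesA type 11 had a lower ratio in dark than in light, but CesA-8 was the one called.

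In leaves given water instead of nitrate, many wall probes were called at different levels between etiolated and light-grown leaves. No leaves sampled before the treatment were on the arrays. Probes for xyloglucan enzymes, cellulose synthases, pectin enzymes and polygalacturonases had more higher than lower calls in etiolated leaves, though without normalization between arrays this was so for polygalacturonases only, with 4 higher and 2 lower. Water-treated leaves of the conditions were never on 1 array, so this comparison uses the single channels after a normalization that gives all arrays the same distribution of intensities, and array and condition cannot otherwise be told apart. By that comparison 76 of the 190 members were called, 49 higher and 27 lower in etiolated leaves. This is 40.0% of the members against 29.0% of all probes, and by direction 25.8% and 14.2% against 14.6% and 14.4%. After adjustment 69 members remained, or 36.3% against 28.1% of all probes.

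The split between higher and lower depended on the scaling. Without normalization between arrays the median of all probes lay at -0.56, and 23 members were higher and 55 lower. Relative to that median, an alternative chosen after seeing the data, the split was 44 higher and 30 lower. With normexp background correction 40 members were called, 29 higher and 11 lower, or 21.1% of the members against 18.1% of all probes. In the nitrate-treated channels 74 were called, 42 higher and 32 lower, beside 31.4%, 15.4% and 15.9% of all probes. Of the 76 members 60 were called there in the same direction, and the matching share of all probes is not given. Both channels shared the same arrays, so this overlap is not independent support for the calls.

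**Figure D4:**
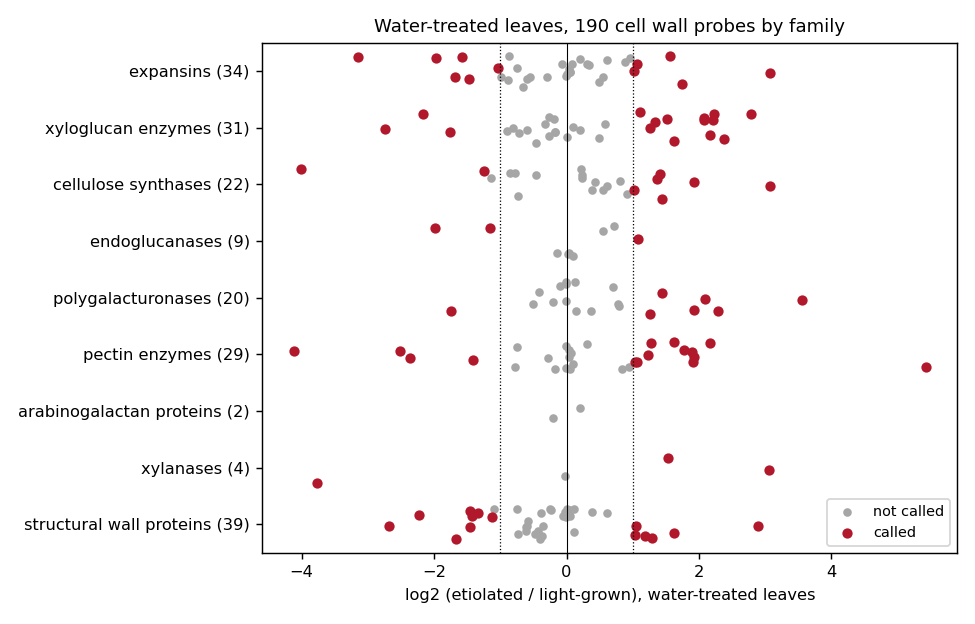
Each point is 1 of 190 probes, placed by the log2 ratio of etiolated over light-grown water-treated leaves (horizontal axis) in its family (vertical axis, number of probes in brackets), from 2 arrays per condition. Red points are called, dotted lines mark a log2 ratio of 1 in either direction, and the vertical position within a family is random. Xyloglucan enzymes have 12 higher and 3 lower called probes, and pectin enzymes 11 and 4.

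Xyloglucan enzymes had 12 higher and 3 lower of 31 probes, beside 14.6% and 14.4% of all probes. The family median was 0.09, so the calls came from a subset of the family. The 17 endotransglycosylases had 6 higher and 3 lower, with a median of 0.01, and in the nitrate-treated channels 5 and 5. Of the 11 fucosyltransferase probes 3 were called higher and 0 lower. With normexp A_71_P110908 (0.13) and A_71_P121383 (0.10) of these were not called. The barley xyloglucan endotransglycosylase-like protein XEB (A_71_P117229) had log2 signals of 12.93 and 12.80 in light-grown and 15.61 and 15.69 in etiolated leaves, a difference of 2.78 ± 0.10 (SE, adjusted p = 2.92e-05). The other XEB probe had a difference of -0.72 and was not called. A rice endotransglycosylase probe (A_71_P111644) rose by 2.17, while another of the same description (A_71_P111642) was at 5.73 and 5.43 against 2.88 and 2.82, at least 6.65-fold lower. With normexp the latter difference was -0.28 and not called. All 3 probes for tomato inhibitors of a fungal xyloglucan-cutting enzyme were called higher, 1 of them dim in both conditions, and the brightest (A_71_P114328) rose by 2.23 ± 0.18. Without normalization between arrays the family was split evenly, with 7 higher and 7 lower.

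Among the 13 CesA-type probes 6 were called higher and 0 lower, beside 14.6% and 14.4% of all probes, and 12 had a positive difference. Without normalization between arrays 2 were called higher and 0 lower. CesA-8 rose most, from 7.49 and 7.96 in light-grown to 10.71 and 10.89 in etiolated leaves, a difference of 3.07 ± 0.31 (SE, adjusted p = 0.000565), or 2.45 with normexp. CesA-7 (A_71_P118114) rose from 12.20 and 12.36 to 14.04 and 14.37. The lower members of the wider family were related synthases rather than CesA. CSLD4 was at 6.85 and 7.19 in light-grown leaves and not above background in etiolated ones, at least 16.1-fold lower (adjusted p = 4.49e-05). With normexp its difference was -0.94 and it was not called. A probe named by At1g55850, a locus of the CSLE group of related synthases, was lower by 1.24.

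Pectin enzymes had 11 higher and 4 lower of 29 probes, beside 14.6% and 14.4% of all probes. The largest differences in both directions belonged to probes with the same name. The At5g19730 pectin methylesterase probe A_71_P103344 rose from 6.09 and 6.26 to 11.70 and 11.50, a difference of 5.43 ± 0.13 (SE, adjusted p = 2.2e-05) or 43.0-fold, and 3.87 with normexp. The probe A_71_P125037 of the same description was at 7.03 and 7.26 in light-grown leaves and not above background in etiolated ones, at least 17.3-fold lower, but with normexp its difference was -0.86 and not called. Another bright probe of that name, A_71_P114203, rose by 1.91, and the other 3 of the 6 were dim everywhere. Of the 38 shared descriptions, 7 had at least 1 probe called higher and 1 called lower here.

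Polygalacturonases had 6 higher and 1 lower of 20, beside 14.6% and 14.4% of all probes. PG1 (A_71_P100700, At1g48100) was at 3.71 and 2.80 in light-grown leaves, where water-treated RNA was not above background, and at 6.81 and 6.80 in etiolated leaves, at least 11.7-fold higher (adjusted p = 0.00105). With normexp its difference was 0.98 and it was not called. Both probes of At1g60590 rose, by 2.09 and 1.93, and the pea polygalacturonase Ppg1 fell by 1.74. The endoxylanase probe A_71_P115250 rose from 6.84 and 7.24 to 10.06 and 10.15, a difference of 3.06 ± 0.36, or 2.23 with normexp. The xylanase inhibitor (A_71_P118563) went from 7.94 and 8.31 to 5.18 and 3.55, at least 13.6-fold lower, with a difference of -1.62 under normexp.

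**Figure D5:**
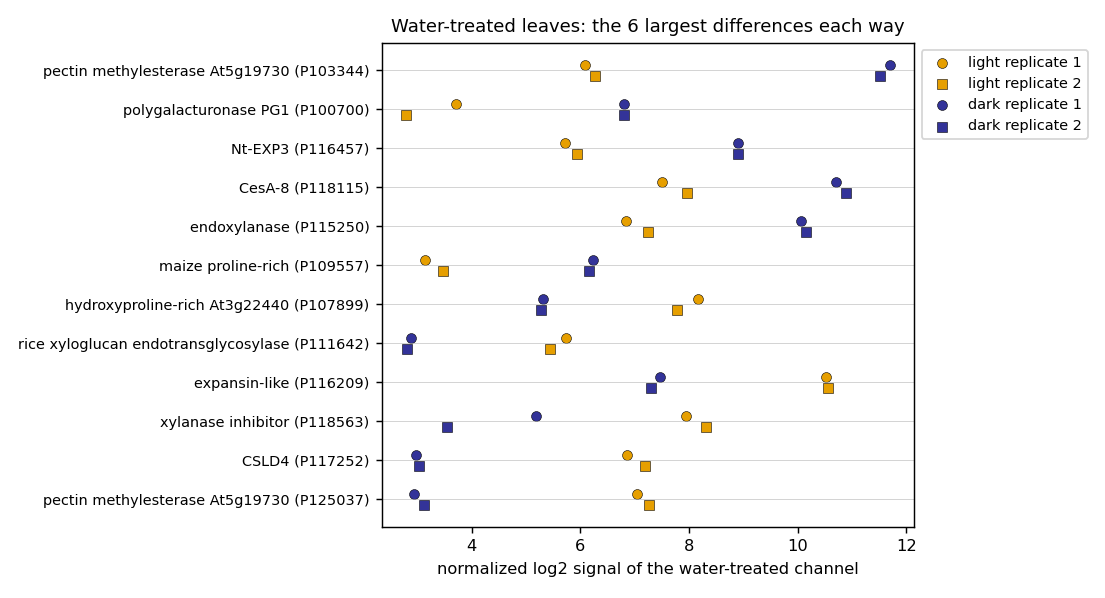
Normalized log2 signal (horizontal axis) of the water-treated channel on each array for the 6 probes with the largest increase and the 6 with the largest decrease in etiolated leaves (vertical axis), light replicates in orange and dark replicates in blue, circles for replicate 1 and squares for replicate 2. For each probe the light and dark arrays are separate, and for P103344 they lie at 6.09 and 6.26 against 11.70 and 11.50; signals of different probes are not comparable.

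Expansins were divided, with 5 higher and 6 lower of 34, near the shares of all probes called (14.6% and 14.4%). Nt-EXP3 rose from 5.72 and 5.93 to 8.90 and 8.90, a difference of 3.08 ± 0.12 (SE, adjusted p = 3.1e-05), or 1.63 with normexp. Of the lower probes 4 were beta-expansins of rice, of which EXPB3 (A_71_P123221) went from 12.65 and 13.21 to 10.97 and 10.94. Another of the 4, the dim EXPB4 probe A_71_P123352 (-1.57), was at -0.44 with normexp and not called. A different EXPB4 probe, A_71_P115789, was called higher, at 1.03, but not with normexp. A rice expansin-like probe (A_71_P116209) had the lowest difference of the family, from 10.52 and 10.56 to 7.47 and 7.30, a difference of -3.16, or -2.38 with normexp. The Os-EXP3 probes, both down-regulated by nitrate in light, had differences of 0.05 and 1.06, and EXPB11 one of -0.30.

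Structural wall proteins had 6 higher and 8 lower of 39, beside 14.6% and 14.4% of all probes, and a median of -0.37. All 6 probes of the rice proline-rich proteins OsPRP1 and OsPRP2 had a negative difference, and 2 of them were called. The brightest, A_71_P123711, went from 15.73 and 15.80 to 14.05 and 14.14, a difference of -1.67 ± 0.17 (SE, adjusted p = 0.000592). It was saturated in 1 of the 2 water-treated channels of light-grown leaves, where its signal is capped. The maize proline-rich probe A_71_P109557 was at least 7.42-fold higher in etiolated leaves by this comparison, but its difference was 0.49 with normexp, where it was not called, and 1.37 in the nitrate-treated channels. Another of the 3 probes of that description, A_71_P123879, was called lower, at -2.23, but with normexp it was at -0.62 and not called. Not every name fits a wall protein, since At3g22440, called a hydroxyproline-rich glycoprotein here and lower by 2.67 on A_71_P107899 and by 1.01 with normexp, belongs to the FRIGIDA-like family in Arabidopsis. Another of the 3 probes of that name, A_71_P107900, was called higher, at 1.03, but not with normexp.

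Markers of other cells and states moved between the conditions as well. Of 37 probes for photosynthetic proteins of the leaf mesophyll, 25 were lower and 2 higher in etiolated water-treated leaves, and their summed signal was 955776 and 1655950 in light-grown against 256007 and 320267 in etiolated leaves. As 17 of the 37 were saturated in at least 1 channel, these sums include capped signals. Of 37 histone and cyclin probes 9 were higher and 8 lower, and of 9 wound-related probes 1 was higher and 5 lower. The summed signal of the wound-related probes went the other way, at 37478 and 46493 in light-grown against 67325 and 83521 in etiolated leaves. Of all probes 14.6% were called higher and 14.4% lower in this comparison. The part of these shifts in the levels of the wall genes was not tested. For nitrate, 2 mesophyll probes were higher in light and 1 lower in dark, and of the wound-related probes 2 were higher and 1 lower in light and none was called in dark. Of all probes 2.28% and 1.46% were called higher and lower in light, and 1.81% and 1.72% in dark.

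Other wall genes, outside the 13 terms, were counted from a separate list. Of 48 probes for pectate lyases, beta-galactosidases, laccases, callose synthases, makers of nucleotide sugars and the like, 1 was higher and 1 lower in light, 2 were higher and 0 lower in dark, and 3 and 3 differed between the conditions. Of all probes 2.28% and 1.46% were called in these directions in light, 1.81% and 1.72% in dark, and 2.98% and 3.54% for the difference. After adjustment 2 of the 48 remained in light, where no member did, and 0 in dark and for the difference. In etiolated over light-grown water-treated leaves 6 were higher and 8 lower, beside 14.6% and 14.4% of all probes.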

How the data were processed

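The authors deposited scanner output of 4 two-colour arrays with spot intensity values per channel, background-subtracted and dye-balanced by Feature Extraction, and log10 ratio values, as well as a table of normalized ratio values after lowess. The deposited ratios, as log2, had correlations of 0.981 to 0.994 with the loess-normalized log2 ratios computed here from the processed signals. Ratios of nitrate over water, taken as log2 of the processed signals, were normalized by loess within arrays (span 0.3, 4 iterations, control spots at weight 0), outlier spots (7 to 60 per array) were left out, saturated spots were kept and the 2 spots of a probe were averaged. Ratios were fitted with limma 3.58.1 (lmFit, eBayes) under R 4.3.3 over the 4 arrays together, with a coefficient for light and one for dark and their contrast. Each SE of a nitrate response or of the contrast is the moderated SE of that fit, and its p-values were adjusted by Benjamini-Hochberg over all 21495 probes. The water-treated channels were compared by a separate-channel analysis (Aquantile between arrays, statmod 1.5.0). The moderated SE of that comparison comes from the separate-channel fit, and its p-values were adjusted over 21493 probes. Water-treated and nitrate-treated RNA shared arrays, so the contrast and the water comparison rest on the same libraries.

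The members and lists were chosen with earlier results of these data known. Named members are the up to 6 largest called increases and decreases in each comparison among probes that both arrays of a condition showed above background in 1 channel or more, and the members called in both conditions; others were named after their values were seen. A fold is written "at least" where 1 side was above background on neither array; it sets the bright mean against the higher of the dim probe's own signal and the lowest signal above background. On simulated data, of 200 probes given a log2 shift of 2 in light 197 were called among 21495, with 101 unchanged probes, and 110 of the 200 were called after adjustment. For the contrast 185 of 200 were called with 260 unchanged, and 57 after adjustment. For the water comparison 196 of 200 were called, with 192 unchanged. The simulated water comparison had no differences between arrays and no normalization between them. It therefore cannot show how reliable the water calls are, where array and condition coincide. Replicate numbers coincide with dye orientation. All arrays were on 1 slide. The number of arrays limits the precision. Figures were drawn with matplotlib 3.10.9. The alternatives tried were normexp (offset 50), median centring, leaving out dim probes, keeping outlier spots, adjusted p, any fold, leaving out each array, a replicate block, the scanner's log ratio, the deposited ratios, fits without moderation, each condition alone and, for water, other normalizations between arrays.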

Additional observations from a re-analysis of the deposited data

Results flagged for a closer look

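The response to nitrate differed between light and dark, by the contrast of the coefficients, for 23 members, none after adjustment. By size the largest among them were EXPB11 (A_71_P106285), with a log2 difference of -2.46 (dark minus light), Nt-EXP3 (A_71_P116457) with -2.19 and the endoxylanase probe A_71_P115250 with -2.05. These were followed by the maize proline-rich protein (A_71_P109557) with -1.52, the fucosyltransferase probe A_71_P105061 with -1.43 and the At5g19730 pectin methylesterase probe A_71_P103344 with -1.39. The maize probe was above background in no light channel, and with normexp its difference was -0.29 and not called. In the opposite direction were the Os-EXP3 probes A_71_P100666 with 1.88 and A_71_P114714 with 1.16, the fucosyltransferase probe A_71_P116772 with 1.58, CSLD4 (A_71_P117252) with 1.41 and the polygalacturonase beta subunit (A_71_P120568) with 1.01. With 2 arrays in each condition, no single array could be tested as standing apart from its group.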

How the results depend on the processing

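The counts of called members kept within 1.5 times of those reported under median centring, with outlier spots kept and, for the nitrate comparisons, with the scanner's log ratios and with the deposited ratios. They were 15 in light, 9 in dark, 23 for the difference and 76 for water-treated leaves. With normexp they fell to 2, 2, 8 and 40, and the cause was not tested. With dim probes left out, which removes members, they were 6, 4, 15 and 54. After adjustment 0, 0, 0 and 69 remained, and at any fold 40, 33, 37 and 109 had an unadjusted p under 0.05. Without moderation they were 4, 3, 13 and 66. Leaving out each array gave 14 to 16, 9 to 14, 19 to 27 and 65 to 80. With a replicate block, which here also stands for the dye orientation, they were 14, 12, 23 and 71. All these counts are of members alone and cannot show whether members exceeded all probes under an alternative. Light and dark samples of 1 number share the number and the dye orientation. The differences between replicates correlated at 0.122 between the conditions, which cannot show what else they share. Over all probes, light and dark ratios correlated at -0.008 for replicate 1 and 0.317 for replicate 2. The pairs of unlike number gave 0.014 and 0.119. Of 524 values of named members under these alternatives, 450 kept their side of the threshold, 74 lost it and 0 changed sign. The named members had been chosen for passing the threshold in these data, so they could not gain it. Leaving out an array of 1 condition also left the log2 ratio of the other condition unchanged. This tally is therefore no measure of how reliable the calls are. Of the 74, 27 were lost with normexp and 18 without moderation. With 39 members above background in no channel and 2 arrays per condition, small changes of dim probes were not measurable.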
